A study of Mus musculus with 6 samples.

Results

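Integrins are receptors that cells use to hold on to the matrix around them, and laminins are among the matrix proteins they hold. The family described here was taken from the annotated array table by gene symbol: every symbol of an integrin alpha chain, an integrin beta chain or a laminin chain, with the brightest probe set standing for a gene that had more than 1. The rule found 36 genes among the 22084 named genes, 26 for integrin subunits (18 alpha and 8 beta) and 10 for laminin chains (5 alpha, 2 beta and 3 gamma). They were read by 39 probe sets. The beta chain gene Lamb1 was outside the rule because the deposited annotation calls it Lamb1-1; its values are given beside its partner chains.

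An integrin is a pair of 1 alpha and 1 beta chain, both of which span the membrane. The alpha chain largely sets which ligand is bound, and the short tail of the beta chain recruits talin and kindlin inside the cell, which switch the receptor on and tie it to actin. A laminin is a trimer of 1 alpha, 1 beta and 1 gamma chain. Laminins polymerise on the cell surface into the sheet on which a basement membrane is built, and in the testis such membranes surround the seminiferous tubules next to which Leydig cells lie.

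The cells were MA-10, an established line of mouse tumour Leydig cells, grown in DMEM-F12 with horse serum. One group of 3 samples received a scrambled siRNA (siRNA control), and the other group of 3 received siRNA directed at both MEF2A and MEF2D (siRNA MEF2), with RNA extracted at 48 h. MEF2A and MEF2D are transcription factors of the MADS family that are best known from muscle. Neither group was left without siRNA, the reagent that delivered it is not given in the sources used here, and nothing in the labels says that the 3 samples of a group were separate cultures, so the p-values cover only how far these samples differ from each other, and that spread may be technical. All cells came from 1 line.

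Median log2 signals per array ran from 7.82 to 7.89. Mef2a, targeted by the siRNA, fell by 0.78 on the log2 scale and Mef2d by 0.46 (limma adjusted p = 8.44e-05 and 0.00205), and on every siRNA MEF2 array both were below all control arrays. Of 6 Leydig markers 5 had a mean signal of at least 8 in both groups, and Hsd3b1 did not. Among the markers of other cell types, 4 of 6 Sertoli markers, 0 of 4 peritubular myoid, 0 of 4 germ cell, 0 of 6 leukocyte, 0 of 4 platelet and 1 of 4 endothelial markers reached that level, the last being Cdh5. By the limma test described next, 3 Leydig markers were called higher and 2 lower, 1 Sertoli marker each way and 1 endothelial marker each way. Of the germ cell markers 1 was called higher, and of the leukocyte markers 3, with none lower in either list. None of the peritubular myoid or platelet markers was called, also at an unadjusted p under 0.05. Over all genes 9.04% were called higher and 11.7% lower. Where a group mean was under 8 the shares were 11.7% and 2.09%. At an unadjusted limma p under 0.05, 4418 of 22084 genes were higher and 3702 lower. Each difference below is siRNA MEF2 minus siRNA control, tested with limma, and a gene is called at an adjusted p under 0.05 over all genes; an error given as SE is the moderated standard error.

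Promoter windows from RefSeq (build GRCm38.p6, from 250 bases before to 50 after an annotated start) were at hand for 22 of the 36 genes, in 25 windows. The consensus binding sequence of MEF2, searched on both strands, was in 1 of these windows, that of the integrin alpha chain gene Itga10, against 3.19% of all 32851 windows. The GC box GGGCGG, also searched on both strands, was in 11 of the 25 windows and in 35.7% of all windows, and TATAAA was in 0 of 25 and in 13.6% of all windows. These are matches of letters and not sites shown to be bound. Shown first are the bases up to the start for the fibronectin and vitronectin receptor genes on which the results turn, with GC boxes in capitals, and last those of Itga10 with the MEF2 match in capitals. The GC box of Itgav lies after the start and is not shown.
Itgav, chr2:83724147-83724396, plus strand: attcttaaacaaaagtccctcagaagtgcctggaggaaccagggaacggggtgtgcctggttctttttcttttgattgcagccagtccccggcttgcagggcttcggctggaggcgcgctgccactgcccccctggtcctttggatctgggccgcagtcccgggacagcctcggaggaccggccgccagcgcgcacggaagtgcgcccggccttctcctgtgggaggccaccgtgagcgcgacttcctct
Itga5, chr15:103366792-103367041, minus strand: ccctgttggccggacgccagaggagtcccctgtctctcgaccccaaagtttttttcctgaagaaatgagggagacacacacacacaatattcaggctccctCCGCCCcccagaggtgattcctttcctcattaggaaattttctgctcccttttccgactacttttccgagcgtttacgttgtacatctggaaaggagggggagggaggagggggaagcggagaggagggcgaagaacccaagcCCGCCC
Itgb1, chr8:128685404-128685653, plus strand: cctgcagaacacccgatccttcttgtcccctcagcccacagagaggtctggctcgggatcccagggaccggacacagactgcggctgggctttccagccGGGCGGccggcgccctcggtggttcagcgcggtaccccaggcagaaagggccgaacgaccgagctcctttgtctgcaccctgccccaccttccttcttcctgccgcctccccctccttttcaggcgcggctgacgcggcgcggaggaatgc
Itga10, chr3:96645334-96645583, plus strand: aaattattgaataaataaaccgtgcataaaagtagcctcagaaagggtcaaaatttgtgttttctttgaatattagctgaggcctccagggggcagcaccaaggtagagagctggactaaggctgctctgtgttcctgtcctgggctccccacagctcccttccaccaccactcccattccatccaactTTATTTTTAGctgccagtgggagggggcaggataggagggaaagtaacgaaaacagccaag

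Integrin genes went both ways in siRNA MEF2 cells, while none of the laminin genes passed the test. Of 36 subunit genes 7 were called, 3 higher (Itgav, Itga3 and Itgb4) and 4 lower (Itga5, Itga6, Itgad and Itgb1), all of them integrins. Over all genes limma called 20.7%, 9.04% higher and 11.7% lower, so the family was called about as often as genes at large. The 3 siRNA MEF2 values lay outside the range of the 3 controls for 12 of the 36 genes, 7 above and 5 below, against 40.8% of all genes. The median difference was 0.08 over the 36 genes and 0.04 over all genes.

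The direction of a call went with the signal across the arrays. Where a group mean was under 8, 11.7% of all genes were called higher and 2.09% lower, and where both means were at least 8 the shares were 6.04% and 22.5%. Of the subunit genes, 22 fell in the first class (1 called higher, 1 lower) and 14 in the second (2 higher, 3 lower). Within these classes Itga3 rose, and Itga5, Itgb1 and Itgad fell, in the direction most calls took. Itga6 fell in the first class, and Itgav and Itgb4 rose in the second, against most calls. The classes are too coarse for Itgb4 and Itgad, whose mean signals over the arrays were 8.32 and 8.53. With all genes binned by signal, the median difference was 0.06 at a signal of 8.04, 0.01 at 8.44 and -0.05 at 8.83. Itgb4 and Itgad both lay in the bin at 8.44, where the median difference of all genes was 0.01. The share of this trend in single genes was not tested. After median centring of the arrays the calls over all genes split into 826 higher and 3591 lower, against 1997 and 2578 as deposited.

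**Figure D1:**
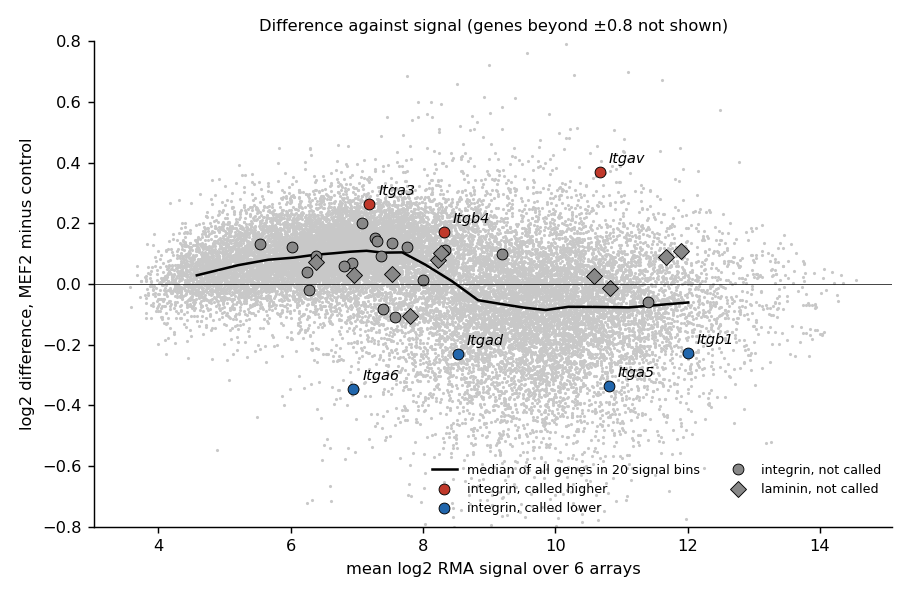
Log2 difference, siRNA MEF2 minus siRNA control, against the mean log2 signal over 6 arrays for all genes (grey points), integrin genes (circles) and laminin genes (diamonds), coloured by call. The black line, the median of all genes in 20 bins of signal, passes from above 0 at low signal to below 0 at high signal; Itgav stands above it and Itga5, Itga6 and Itgb1 below it.

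Among the alpha chains that recognise the RGD motif of fibronectin and vitronectin, Itgav rose while Itga5 fell. Itga8 and Itga2b, of the same class and given below, were not called. Itgav (probe set 10473281) encodes the alpha chain shared by the vitronectin receptors and by integrins that activate latent TGF-beta. Its log2 signals were 10.41, 10.62 and 10.42 on the control arrays and 10.90, 10.87 and 10.79 on the siRNA MEF2 arrays. Every siRNA MEF2 value was above every control value. The means were 10.48 ± 0.12 and 10.85 ± 0.05 (SD, n = 3 each), a rise of 0.37 (SE 0.07), 1.29-fold on the linear scale (limma adjusted p = 0.00334). Itgav stayed called higher under all 15 alternative settings, with differences from 0.32 to 0.46.

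Itga5 (probe set 10433114) encodes the alpha chain of the classical fibronectin receptor, whose only beta chain is that of Itgb1. It read 11.12, 10.86 and 10.94 in control and 10.69, 10.53 and 10.70 in siRNA MEF2 samples. The groups did not overlap, and control replicate 1 was the highest of the 6. Itga5 fell by 0.34 (SE 0.08), 1.26-fold on the linear scale (limma adjusted p = 0.0102). Quantile normalization took it past the threshold (adjusted p of 0.0675), as did cyclic loess (0.0577) and a fit lacking siRNA MEF2 replicate 2 (0.0510).

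Itgb1 encodes the beta chain with the most partners, shared by receptors for fibronectin, collagens and laminins, and its probe sets disagreed. The brighter one (probe set 10576661) read 12.13, 12.15 and 12.06 in control and 11.86, 11.94 and 11.85 in siRNA MEF2 samples, without overlap. It fell by 0.23 (SE 0.06), 1.17-fold on the linear scale (limma adjusted p = 0.0167). The dimmer probe set (10582843), annotated to the same transcript, read 8.45, 8.55 and 8.54 in control and 8.87, 8.67 and 8.59 in siRNA MEF2 samples, which is higher on every siRNA MEF2 array. Its difference of 0.20 did not pass (adjusted p = 0.0743 when it stood for the gene), and with the mean of both the difference was -0.02 (adjusted p = 0.861). The call of the brighter probe set did not hold under quantile normalization (adjusted p of 0.0861), cyclic loess (0.0843) or a fit lacking siRNA control replicate 1 (0.0507) or siRNA control replicate 2 (0.0648). A fall of Itgb1 thus rests on 1 of its probe sets.

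The other beta chains that pair with the product of Itgav did not pass. Itgb5, which forms a vitronectin receptor with it, read 11.39, 11.48 and 11.41 in control and 11.38, 11.35 and 11.37 in siRNA MEF2 samples, lower without overlap but by a narrow gap. The difference was -0.06 with a 95% interval from -0.18 to 0.06 (adjusted p = 0.459), and it turned positive in 2 of 15 settings. Itgb3, the other vitronectin receptor beta chain, differed by -0.08 (interval -0.22 to 0.06). Itgb6, of the epithelial TGF-beta-activating integrin, differed by 0.13 (0.01 to 0.25, adjusted p = 0.107) and Itgb8, also TGF-beta-activating, by -0.11 (-0.32 to 0.10). The last 3 had signals under 8 in both groups. Itgb8 read 7.37 on control replicate 1 and 7.79 and 7.73 on the other controls, the whole spread of the 6 arrays. Leaving out siRNA control replicate 1 moved its difference to -0.24 and leaving out siRNA control replicate 2 moved it to -0.03, neither of which passed (adjusted p of 0.0544 and 0.874).

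**Figure D2:**
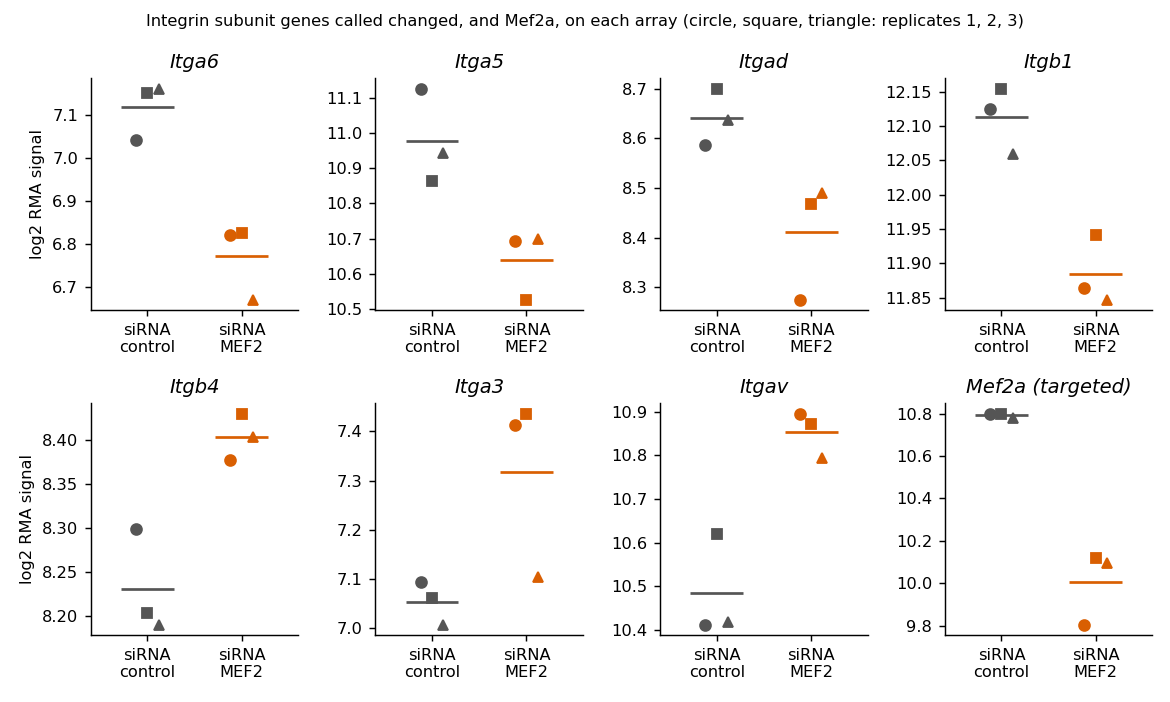
Log2 RMA signal on each array for the 7 called integrin genes, in order of their difference, and for the targeted Mef2a; points are the 3 replicates of a group and lines their means, and each vertical axis has its own range. In all 8 panels the siRNA MEF2 values lie wholly on one side of the control values; Itga3 on siRNA MEF2 replicate 3 (7.11) comes close to control replicate 1 (7.09).

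Besides Itgb1, described above, the laminin-binding chain gene Itga6 was called lower and Itgb4 and Itga3 were called higher. Itga6 encodes the alpha chain that binds laminin with the product of Itgb1 or Itgb4. It read 7.04, 7.15 and 7.16 in control and 6.82, 6.83 and 6.67 in siRNA MEF2 samples, below the control range on each array. The fall of 0.34 (SE 0.06, limma adjusted p = 0.00354) was called in all 14 alternatives that included the gene, from -0.45 to -0.29. These signals are no higher than the median over negative control probe sets on each array, 7.28 to 7.35 on control and 7.16 to 7.53 on siRNA MEF2 arrays, so no fold is given.

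Itgb4, whose chain pairs only with that of Itga6 and anchors epithelial cells at hemidesmosomes, read 8.30, 8.20 and 8.19 in control and 8.38, 8.43 and 8.40 in siRNA MEF2 samples. The rise of 0.17 (SE 0.06), 1.13-fold, passed narrowly (limma adjusted p = 0.0488). Its dimmer probe set (10393045) differed the same way, by 0.21, from 7.70, 7.69 and 7.70 to 7.87, 7.90 and 7.95. Each of the 3 other scalings ended the call (adjusted p of 0.0625 to 0.153), and it was also lost with a variance trend (0.0587), with a replicate block (0.0563) and without any 1 array (0.0606 to 0.159) except siRNA control replicate 1.

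Itga3, the alpha chain of another laminin receptor with the chain of Itgb1, read 7.09, 7.06 and 7.01 in control and 7.41, 7.44 and 7.11 in siRNA MEF2 samples. It was called higher by 0.26 (SE 0.08, limma adjusted p = 0.0403), with siRNA MEF2 replicate 3 near the controls. The 3 control values and siRNA MEF2 replicate 3 lay below the negative control medians of their arrays, and siRNA MEF2 replicates 1 and 2 above theirs. Itga3 was not called under any of the 3 other scalings (adjusted p of 0.0763 to 0.181), nor without any 1 array (0.0728 to 0.149) except siRNA MEF2 replicate 3. Itga7, the laminin-binding alpha chain best known from muscle, read 7.30, 7.37 and 7.28 in control and 7.45, 7.42 and 7.35 in siRNA MEF2 samples. The groups overlapped, and the difference was 0.09 (interval -0.03 to 0.22, adjusted p = 0.264).

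**Figure D3:**
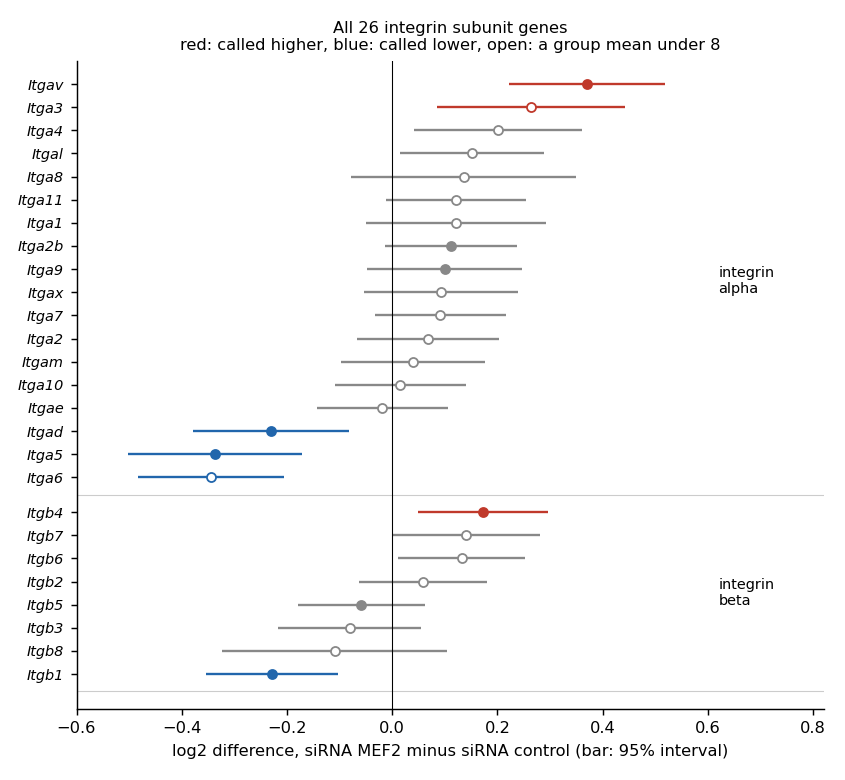
Log2 difference, siRNA MEF2 minus siRNA control, of all 26 integrin subunit genes by type of chain; points are limma estimates, bars 95% intervals, filled points genes with both group means at least 8. The 3 genes called higher and the 4 called lower have intervals that leave out 0, as do those of Itga4, Itgal, Itgb6 and Itgb7, which were not called.

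Alpha chains that bind collagen gave differences from 0.02 to 0.12, and none passed. They were Itga1 (0.12), Itga2 (0.07), Itga10 (0.02) and Itga11 (0.12). Itga10, the gene with the MEF2 match in its promoter window, read 7.95, 7.97 and 8.06 in control and 8.02, 8.03 and 7.97 in siRNA MEF2 samples. Its groups overlapped, the 95% interval was -0.11 to 0.14, and the adjusted p was 0.867. Of the remaining alpha chains that pair with the product of Itgb1, Itga9, a receptor chain for tenascin and osteopontin, read 9.05, 9.22 and 9.17 in control and 9.18, 9.20 and 9.35 in siRNA MEF2 samples (difference 0.10, interval -0.05 to 0.25). Itga8, which binds nephronectin, differed by 0.14 (adjusted p = 0.33) and was called higher without siRNA control replicate 2 (0.27, adjusted p = 0.0262). Itga4, which binds VCAM1 and fibronectin, differed by 0.20 (interval 0.04 to 0.36, adjusted p = 0.0693). It was called higher with array weights (0.0181), with a replicate block (0.0342) and without siRNA MEF2 replicate 1 (0.0182).

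Integrin genes known from blood cells had group means under 8, apart from 1 probe set of Itgad and the probe set of Itga2b. Itgad, a leukocyte alpha chain gene, was called lower on the probe set that stood for it (10557925, annotated to an Ensembl transcript). That probe set read 8.59, 8.70 and 8.64 in control and 8.27, 8.47 and 8.49 in siRNA MEF2 samples, a fall of 0.23 (SE 0.07, limma adjusted p = 0.0335). The probe set annotated to the RefSeq transcript (10557928) read 6.91, 6.85 and 7.15 in control and 7.11, 7.15 and 6.98 in siRNA MEF2 samples, and differed by 0.11 in the opposite direction. With the mean of both, Itgad differed by -0.06 (adjusted p = 0.482), and the call was also lost after quantile normalization (0.0871) and without any 1 array (0.0512 to 0.113) except siRNA MEF2 replicate 3.

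The other leukocyte chains did not pass. Itgal, the alpha chain of LFA-1, differed by 0.15 (interval 0.01 to 0.29, adjusted p = 0.104), without overlap, and was called with array weights (0.0358). Its partner Itgb2 differed by 0.06, Itgam by 0.04 and Itgax by 0.09, and the mucosal lymphocyte chains Itgae and Itgb7 by -0.02 and 0.14. Of 6 leukocyte markers 3 were called higher, Cd3e and Ptprc among them, and none lower, all at means under 8. Among all genes with a group mean under 8, 11.7% were called higher and 2.09% lower. The mean log2 signal of the leukocyte list was 6.36 to 6.44 on control and 6.56 to 6.62 on siRNA MEF2 arrays. The part of this shift in the leukocyte integrin values was not tested. Itga2b, the platelet fibrinogen receptor alpha chain, read 8.25, 8.30 and 8.28 in control and 8.34, 8.36 and 8.46 in siRNA MEF2 samples, higher without overlap by 0.11 (adjusted p = 0.177). Of 4 platelet markers limma called 0 (also 0 at an unadjusted p under 0.05), and their mean signal was 5.70 to 5.82 and 5.82 to 5.89. At that unadjusted threshold, 3258 of the 11697 genes with a group mean under 8 were higher and 409 lower.

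**Figure D4:**
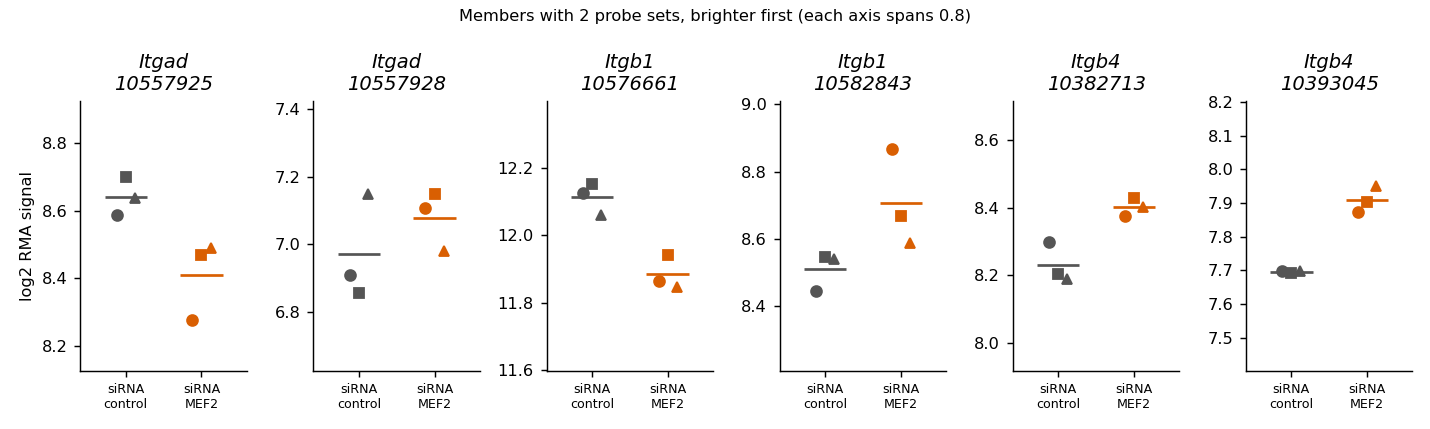
Log2 RMA signal on each array for the 3 genes with more than 1 probe set, brighter probe set first; points are replicates, lines group means, and each axis spans the same range. The probe sets of Itgad and of Itgb1 differ in direction between the groups, and those of Itgb4 run the same way.

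On the ligand side, 0 of 10 laminin chain genes passed, also at an unadjusted p under 0.05, and for all 10 the groups overlapped. Over all 22084 genes 20.7% were called and 40.8% had groups that did not overlap. At an unadjusted limma p under 0.05, 4418 of all genes were higher and 3702 lower. None of the 10 was called under any of the 15 alternatives, the lowest adjusted p being 0.0731. Their 95% intervals ran from -0.24 at the lowest to 0.26 at the highest, so changes inside those bounds are compatible with the values. These counts leave out Lamb1, which was outside the rule. Its unadjusted limma p was 0.0166, its groups did not overlap, and it was called in 6 of the 15 alternatives. The difference in number of calls between integrins and laminins was not tested.

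Lama1, Lamb1 and Lamc1 encode the chains of the laminin of early embryonic basement membranes. Lama1 read 11.59, 11.71 and 11.60 in control and 11.55, 11.79 and 11.83 in siRNA MEF2 samples, with siRNA MEF2 replicate 1 below all controls and the other two above them (difference 0.09, interval -0.08 to 0.26, adjusted p = 0.409). Lamc1, whose gamma chain is in most laminins, read 11.81, 11.92 and 11.81 in control and 11.82, 11.97 and 12.08 in siRNA MEF2 samples. Its groups overlapped, with a difference of 0.11 (-0.05 to 0.26). Lamb1 (Lamb1-1 in the annotation) read 11.28, 11.37 and 11.32 in control and 11.40, 11.49 and 11.62 in siRNA MEF2 samples. It was higher on every siRNA MEF2 array, by 0.18 (interval 0.04 to 0.32), and just missed the threshold (adjusted p = 0.0666). It passed in 6 of 15 alternatives, with a difference of 0.27 after quantile normalization and 0.26 after cyclic loess (adjusted p of 0.0239 and 0.0245).

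Lama4, whose chain lies in vessel and mesenchymal basement membranes, read 10.79, 10.95 and 10.74 in control and 10.74, 10.83 and 10.88 in siRNA MEF2 samples, and differed by -0.01 (-0.16 to 0.14). Lamb2, of synaptic and glomerular laminins, read 10.55, 10.67 and 10.49 in control and 10.51, 10.60 and 10.69 in siRNA MEF2 samples, and differed by 0.03 (-0.12 to 0.17). Of the 6 laminin genes with both means at least 8, 4 were highest among the controls on control replicate 2, and 5 were highest in the siRNA MEF2 group on replicate 3. The integrin genes Itga2b, Itga9 and Itgad were highest on the same arrays, and the other integrin genes at this signal were not on both. The share over all genes was not counted. Lama5, of most adult epithelial laminins, differed by 0.08 and Lamc3 by 0.10. Among the genes under 8, Lama2, whose chain is that of muscle laminin, differed by 0.07, Lama3 by 0.03 and Lamb3 by -0.11.

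Of 35 genes of the adhesion complex, which carry the integrin signal into the cell, 6 fell and 3 rose (median 0.01; all genes 0.04). Both means were at least 8 for 26 of them, a signal at which 22.5% of all genes were called lower and 6.04% higher. The lower count is near that background. The 3 rises, all at that signal, are few but a larger share than 6.04%, and the difference was not tested. Fermt2, the kindlin-2 gene, had means of 10.44 ± 0.06 in control and 10.80 ± 0.10 in siRNA MEF2 samples (SD, n = 3 each), a 1.28-fold rise (limma adjusted p = 0.00343), and Tln1, the talin-1 gene, rose 1.15-fold (adjusted p = 0.0245). Both proteins bind beta chain tails and activate integrins. Crk, an adaptor downstream of paxillin, rose by 0.28 (adjusted p = 0.0171). Tns2, a tensin gene, fell 1.35-fold from 10.47 to 10.03 (limma adjusted p = 0.000446). Ptk2, the focal adhesion kinase gene, fell by 0.27, the docking protein gene Nedd9 by 0.30 and the actin cross-linker gene Actn1 by 0.25 (adjusted p from 0.0107 to 0.0260). Actn4 and the pinch-1 gene Lims1 were the remaining calls, both lower, and are named after their values were seen. Over the alternatives the lower count ran from 1 (quantile normalization, cyclic loess) to 10 (median centring, array weights), and was 3, 2 and 2 when siRNA control replicate 2, siRNA control replicate 3 or siRNA MEF2 replicate 2 was left out. The higher count ran from 1 (siRNA MEF2 replicate 2 left out) to 6 (quantile normalization).

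Of 22 genes for other laminin receptors, tetraspanins and the glycosylation of dystroglycan, 5 fell and 0 rose (7 lower and 2 higher at an unadjusted p under 0.05; median -0.06, all genes 0.04). Both means were at least 8 for 20 of them, and the count is near the 22.5% of all genes called lower at that signal. At an unadjusted limma p under 0.05, 3293 of the 10387 genes at that signal were lower and 1160 higher. Sdc4, the syndecan that works with fibronectin receptors, read 10.49, 10.52 and 10.35 in control and 9.84, 9.91 and 9.54 in siRNA MEF2 samples, a fall of 0.69, 1.61-fold on the linear scale (limma adjusted p = 0.0004). Cd63, a tetraspanin of late endosomes, fell 1.56-fold, Bcam, a receptor for the chain of Lama5, 1.29-fold and Pomgnt1, a glycosyltransferase of the dystroglycan pathway, 1.23-fold. Cd47, which associates with integrins made with the products of Itgav and Itgb3, fell by 0.23 (adjusted p = 0.0169), the remaining call. Dag1, the dystroglycan gene, differed by -0.04 (adjusted p = 0.629) and Cd151, the tetraspanin of laminin-binding integrins, by 0.09 (adjusted p = 0.355); these and Cd47 were chosen after their values were seen. The lower count was 8 after median centring, and 2 genes were called higher after quantile normalization or cyclic loess and 1 with a variance trend.

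Of 28 genes for other integrin ligands 4 rose and 3 fell (median 0.10; all genes 0.04). Only 4 of the 28 had both means at least 8, and among all genes with a mean under 8 the calls were 11.7% higher and 2.09% lower. The higher count is near that background. The lower calls Spp1 and Fbn1, each with a group mean under 8, are few but a larger share than 2.09%, and the difference was not tested. Spp1, the osteopontin gene and a ligand of alphaV integrins, read 8.19, 8.15 and 8.17 in control and 7.62, 7.35 and 7.44 in siRNA MEF2 samples. It fell by 0.70 (SE 0.07, limma adjusted p = 8.08e-05), and no fold is given because one mean is under 8. Tgfb1, whose latent form is activated by alphaV integrins, fell 1.23-fold and the fibrillin gene Fbn1 by 0.26. Icam1, a ligand of LFA-1, rose 1.21-fold (adjusted p = 0.0082), and Madcam1, Ccn1 and Tnn rose by 0.22 to 0.28 at group means under 8. Fn1 and Vtn, for fibronectin and vitronectin, chosen after their values were seen, differed by 0.05 and 0.10 at means under 8, and neither passed. Of 19 partners of laminin in basement membranes 2 rose (Ntn1 by 0.34 and Nid2 by 0.23, both under 8) and 0 fell, also at an unadjusted p under 0.05 (7 higher at that level; median 0.11). Both means were at least 8 for 5 of the 19, and the counts are near the 11.7% higher and 2.09% lower of all genes with a mean under 8. At an unadjusted limma p under 0.05, 3258 of the 11697 genes with a group mean under 8 were higher and 409 lower. Over the alternatives 1 to 4 ligand genes were called higher, with 1 under each other scaling, among genes above the median signal, and when control replicate 1 or 2 or siRNA MEF2 replicate 1 or 2 was left out; 5 were lower after median centring and 1 without control replicate 2. The basement membrane count ran from 0 (genes above the median signal) to 4 (array weights, or siRNA MEF2 replicate 3 left out), and was 1 under each other scaling and without control replicate 2 or 3 or siRNA MEF2 replicate 1 or 2.

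**Figure D5:**
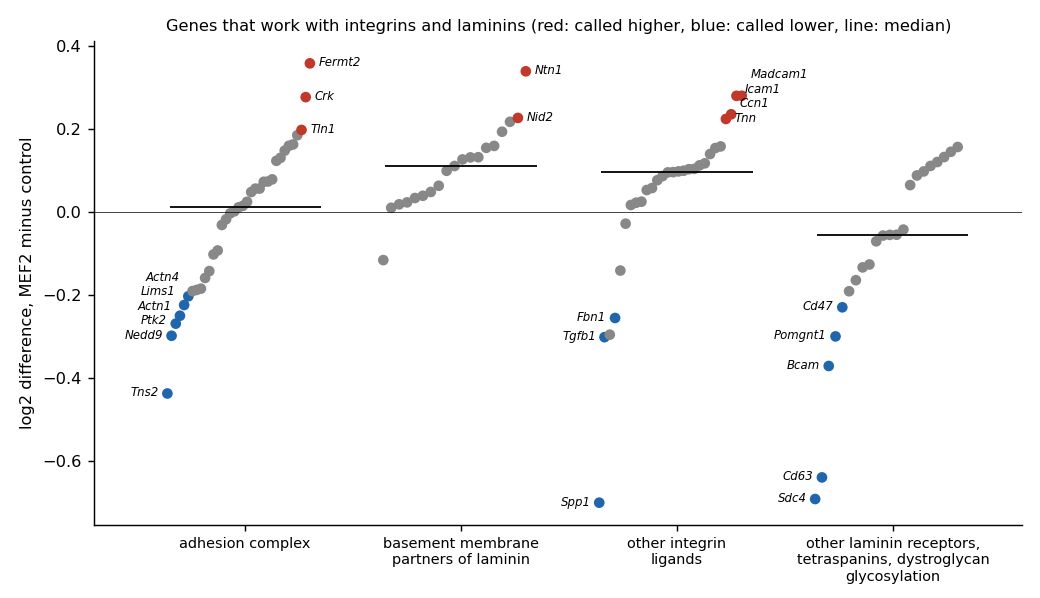
Log2 difference, siRNA MEF2 minus siRNA control, of each gene in 4 lists of genes that act with integrins and laminins, ordered by value within a list; colours mark calls and black lines the list medians. Sdc4, Cd63 and Spp1 lie lowest and Fermt2 and Ntn1 highest.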

How the data were processed

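The deposited values are log2 signals of each probe set on 6 single-colour arrays, made by gene-level RMA per the file headers; Partek and RMA are the tools in the submitters' processing notes, without versions. No source used here gives the array design or annotation release. The 2 deposited tables were equal (largest difference 0.0). Arrays carry no read depth; their number limits the precision.

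Of 35557 probe sets 25522 were named by deposited symbol or accession with RefSeq (GRCm38.p6, names and promoter windows only), for 22084 genes; 1872 genes had several probe sets. Differences were tested with limma 3.58.1 in R 4.3.3 (lmFit and eBayes, two-sided, no covariates, Benjamini-Hochberg over all genes) without a filter on low signal, and checked on simulated data. A fold is printed where neither group mean was under 8. The planned protein tails were not used here. The members and lists (adhesion complex, basement membrane partners of laminin, other integrin ligands, other laminin receptors, and markers of Leydig, Sertoli, peritubular myoid, germ cell, leukocyte, platelet and endothelial cells) were chosen with earlier results of these data known. The text names the members, except 1 not reported here, up to 4 called genes per list and direction with the smallest p, and Mef2a and Mef2d; others are said to be chosen afterwards. Alternatives were 3 scalings, a signal filter, the mean over probe sets, a variance trend, array weights, a replicate block, leaving out each array and, added after seeing the data, the dimmer probe set.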

Additional observations from a re-analysis of the deposited data

How the results depend on the processing

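As deposited, 3 subunit genes were called higher and 4 lower. The higher count was 1 after median centring, quantile normalization or cyclic loess and 5 with array weights. The lower count was 1 after quantile normalization, 2 after cyclic loess, 2 with the mean over probe sets and 2 with the dimmer probe set. With the dimmer probe set the differences of Itgb1 (0.20) and Itgad (0.11) turned positive, and neither was called (limma adjusted p of 0.0743 and 0.338). Leaving out each array gave 1 to 2 higher, 2 to 4 lower and 2481 to 4281 called genes in all, against 4575; the causes were not tested. Itgav and Itga6 kept their direction and call throughout, Itga6 being too dim for the fit restricted by signal. The replicate block called 5308 genes, with 3 higher and 4 lower among subunit genes. Same-numbered samples deviated from their group means with correlations of 0.113, 0.0763 and 0.0961, so the numbers were not taken as pairs. The scalings moved the median difference of all genes from 0.04 to between -0.01 and 0.01. Signals near the negative control medians limit what can be said of the 22 genes with a group mean under 8.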
